A study of Mus musculus with 8 samples.

Results

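The genes described here are 9 transcription factors known for their roles in myeloid cells: the C/EBP family members Cebpa, Cebpb, Cebpd, Cebpe and Cebpg, the interferon regulatory factor Irf8, the Krüppel-like factor Klf4, and the zinc-finger repressors Gfi1 and Gfi1b. They were taken by gene symbol, through the accession that the array design gives each probe, and make up 9 of the 20125 genes named on the array. Each of the 9 was read by 1 probe, and each of these probes was well above background throughout the 8 arrays, so that no member was lost to a filter on dim signals. Their levels were followed over 4 groups of cultured mouse cells with 2 arrays each.

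All groups descend from fetal liver progenitors of Ebf1-deficient mice, so that controls and test groups alike lack the early B-cell factor that is needed for B-cell commitment. Pro-B(+) is a line established on OP9 stroma that keeps the capacity to enter the T lineage, whereas pro-B(−) is a line established on TD7, a fetal thymic mesenchymal stroma, without that capacity. Pro-B(−)/Mock is the pro-B(−) line carrying an empty lentiviral vector with a rat CD2 marker, and pro-B(−)/LMO2 is the same line carrying the vector with mouse Lmo2. The cells were grown with SCF, Flt3L and IL-7. One line of each type stands for its kind, so that differences between pro-B(+) and pro-B(−) hold for these lines and include the stroma on which each was derived. Groups follow the sample titles. The design text of the series describes the arrays titled as empty vector as the line without T-lineage potential and names no vector for them, which leaves a doubt on what pro-B(−)/Mock carries. The stroma of the transductants at RNA isolation is not given in the sources used here, nor do the sample titles say whether replicates were separate cultures. P-values therefore measure the spread between these arrays, which may be technical.

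C/EBP proteins are basic leucine zipper factors that bind DNA as dimers and drive granulocyte and monocyte genes. C/EBPα acts at the step from progenitors to granulocyte and macrophage precursors, C/EBPε acts later in granulocyte maturation, and C/EBPγ lacks an activation domain and can hold other C/EBP proteins in inactive dimers. IRF8 works with the ETS factors PU.1 and SPI-B, or with BATF family proteins, in monocyte, dendritic and B-cell development, and KLF4 favours monocyte fate. GFI1 and GFI1B recruit the LSD1 and CoREST co-repressors, GFI1 in granulocyte precursors and lymphoid cells and GFI1B in the erythroid and megakaryocyte lineages.

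Promoters of 7 of the 9 genes were found in a RefSeq table on mouse build GRCm38.p6, as the 250 bases before and the 50 bases from each annotated start on. Irf8 and Gfi1 have 2 annotated starts each, which gives 9 promoters, and Cebpd and Cebpe have no entry. Sequences are shown for the pair of genes with the largest differences in both main comparisons, Cebpa and Irf8, and for the pair of repressors that were lower with the Lmo2 vector, Gfi1 and Gfi1b. Capitals mark matches, on either strand, to TTGCNNAA, a C/EBP recognition sequence, or to AAATCA, the core recognized by GFI1 and GFI1B. Cebpa lies at chr7:35119043-35119342 on the plus strand, Irf8 at chr8:120736108-120736407 on the plus strand, Gfi1 at chr5:107725756-107726055 on the minus strand and Gfi1b at chr2:28621933-28622232 on the minus strand.
Cebpa: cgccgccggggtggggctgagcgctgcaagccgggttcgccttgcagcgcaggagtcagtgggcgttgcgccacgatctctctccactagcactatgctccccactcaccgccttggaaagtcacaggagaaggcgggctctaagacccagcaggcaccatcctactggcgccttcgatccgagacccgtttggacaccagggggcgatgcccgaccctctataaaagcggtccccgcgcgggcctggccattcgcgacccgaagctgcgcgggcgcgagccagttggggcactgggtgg
Irf8: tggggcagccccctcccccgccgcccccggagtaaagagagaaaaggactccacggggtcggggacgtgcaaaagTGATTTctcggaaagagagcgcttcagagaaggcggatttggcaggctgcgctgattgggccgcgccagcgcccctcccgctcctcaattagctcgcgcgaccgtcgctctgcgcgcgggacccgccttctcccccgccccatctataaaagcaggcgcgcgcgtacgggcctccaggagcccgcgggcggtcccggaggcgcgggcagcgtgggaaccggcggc
Gfi1: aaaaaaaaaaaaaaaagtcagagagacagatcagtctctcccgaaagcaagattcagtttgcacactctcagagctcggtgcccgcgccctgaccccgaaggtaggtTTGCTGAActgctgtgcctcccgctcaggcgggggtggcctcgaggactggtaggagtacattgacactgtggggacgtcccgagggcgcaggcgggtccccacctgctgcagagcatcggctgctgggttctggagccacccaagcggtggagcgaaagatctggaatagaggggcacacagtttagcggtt
Gfi1b: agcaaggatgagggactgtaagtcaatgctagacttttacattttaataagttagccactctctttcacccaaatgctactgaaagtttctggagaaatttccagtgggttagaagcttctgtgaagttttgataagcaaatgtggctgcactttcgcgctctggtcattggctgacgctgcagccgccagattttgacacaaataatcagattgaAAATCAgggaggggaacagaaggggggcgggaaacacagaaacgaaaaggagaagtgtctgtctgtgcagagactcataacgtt

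The C/EBP sequence was found in 1 of the 9 promoters, that of Gfi1 shown above, beginning 143 bases before the start, against 10.8% of all 32851 promoters in the table. The GFI1 core was found in 3 of the 9 promoters. It begins 34 bases before the start of Gfi1b and 175 bases before the start of Irf8, and it is also in the promoter of the other Irf8 start, against 14% of all promoters. A composite of IRF and ETS sites (GGAA and GAAA with 2 free bases between them) was found in 0 of the 9, against 2.72% of all promoters. The matches of the different motifs do not overlap, and no match says only that these letters are not in this window. Cebpa and Cebpg are neighbours on chromosome 7, separated by 62726 bases with no other protein-coding gene lying wholly between them. The GC content of the 9 promoters ran from 44.3% (Gfi1b) to 80.7% (Cebpb).

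Levels are given as log2 of the spot intensity minus the log2 of the 75th percentile of the array, so that 0 is the level of a probe at that percentile. They are compared between arrays for 1 probe and never between probes. Differences were called at a Benjamini-Hochberg adjusted p under 0.05 in a limma fit over all probes. Pro-B(+) and pro-B(−) lay on 1 slide and the transductants on another, so the comparison of the parental lines and that of the vectors each lie within a slide. For comparisons across the slides, slide and group cannot be told apart. Replicate arrays had Pearson correlations of 0.999, and between 56.5% and 61.2% of the probes of an array were well above background. The pro-B identity was read from 12 early B genes, of which 8, Il7r, Rag1 and Rag2 among them, were above background on all 8 arrays. The Ebf1 probe was above background in each group, with levels from 1.13 to 1.52, and whether it lies in the part that was targeted was not examined. Lmo2 was 2.76-fold higher in pro-B(+) cells than in pro-B(−) cells (adjusted p = 2.8e-06) and 1.53-fold higher in pro-B(−)/LMO2 than in pro-B(−)/Mock (adjusted p = 5.55e-05). Across the slides, Lmo2 in pro-B(−)/LMO2 was 1.26-fold above pro-B(−) and 2.19-fold below pro-B(+). Whether its probe reads the transcript of the vector was not examined.

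All 9 transcription factors differed between pro-B(+) and pro-B(−) cells. Cebpa, Irf8, Cebpe, Cebpd, Cebpb, Klf4 and Gfi1 were higher in pro-B(+) cells, and Gfi1b and Cebpg were lower. With median scaling the calls of Klf4 and Gfi1 were lost and Gfi1 changed direction, and Cebpe lost its call without pro-B(+) replicate 1 (adjusted p = 0.0501). Over all 23468 probes tested, 48.6% were called in this comparison, 20.6% higher and 28% lower, so that a call on its own was common. The 2 groups did not overlap for any of the 9 members, whereas they did not overlap for 77.2% of all probes. In size, 4 of the 9 members differed by 2-fold or more, against 11.4% of all probes, and the median size of the difference was 0.72 on the log2 scale for the members and 0.20 for all probes. With arrays scaled to their median in place of the 75th percentile, the median of all differences moved by −0.28. The share of higher among called probes went from 42.4% to 15.8%. Under this scaling 5 members were called higher and 2 lower, and 78.9% of all probes were called.

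With the Lmo2 vector, 7 of the 9 members differed from the empty vector. Irf8, Cebpa, Cebpd, Cebpb and Cebpg were higher in pro-B(−)/LMO2 cells, Gfi1 and Gfi1b were lower, and Cebpe and Klf4 did not pass the test. Among the 22998 probes of this test the share called was 64%, with 28% higher and 36% lower. The groups did not overlap for 8 of the 9 members, against 83.6% of all probes. A difference of 2-fold or more was seen for 3 members, against 10.7% of all probes, and the median size was 0.57 for the members and 0.31 for all probes. Median scaling moved all differences by −0.21 and the share of higher among called probes from 43.7% to 24.5%. It left 4 members called higher and 3 lower, with 71% of all probes called.

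**Figure D1:**
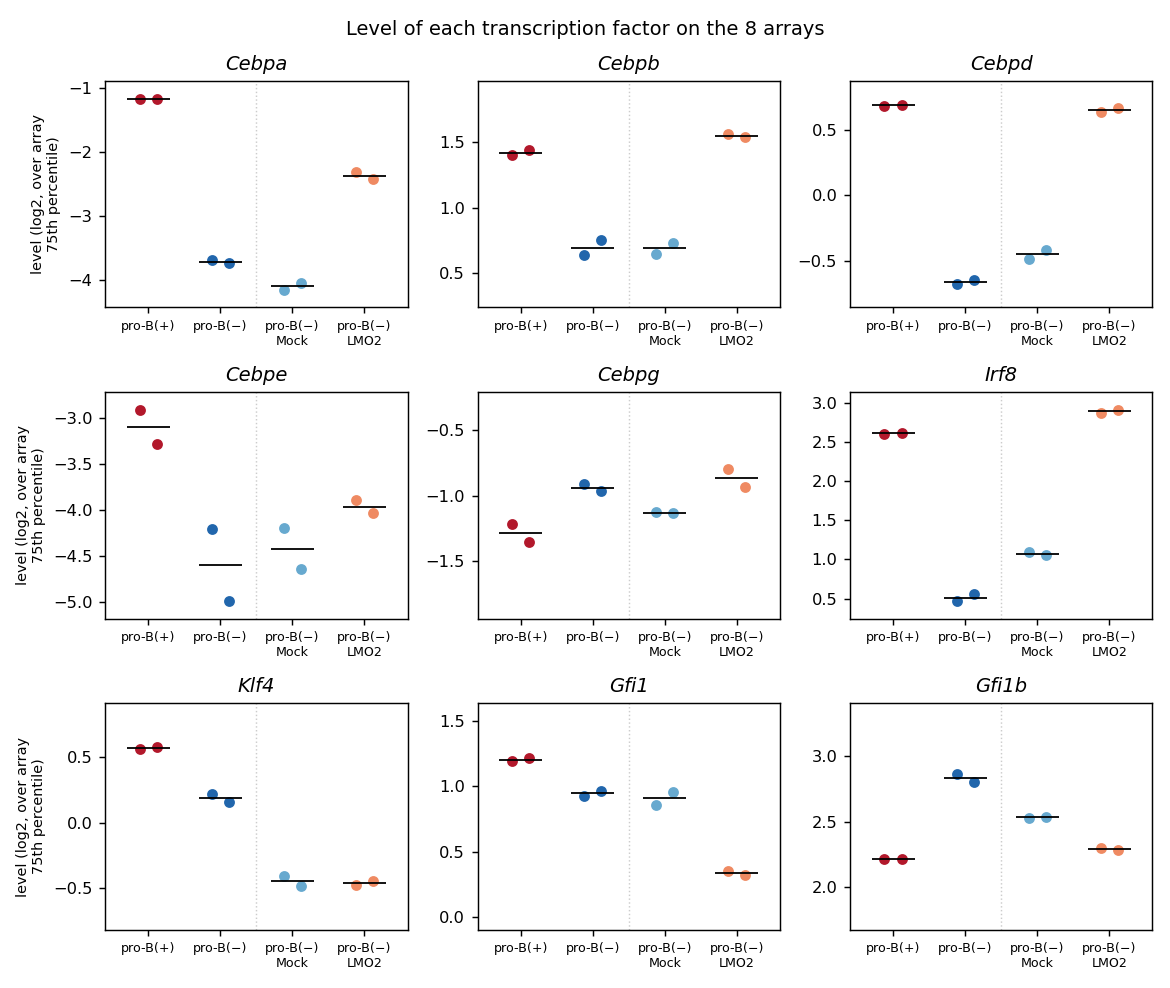
Level of each of the 9 transcription factors on the 8 arrays. The y axis is log2 intensity relative to the 75th percentile of the array, each point is 1 array, horizontal lines are group means, and the dotted line parts the 2 slides. Cebpa, Cebpb, Cebpd and Irf8 were high in pro-B(+) and pro-B(−)/LMO2 and low in pro-B(−) and pro-B(−)/Mock, while Gfi1 was lowest in pro-B(−)/LMO2 and Gfi1b was lowest in pro-B(+).

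Cebpa, the founding factor of the granulocyte and macrophage programme, had levels of −1.17 and −1.17 on the pro-B(+) arrays and −3.70 and −3.74 on the pro-B(−) arrays. In the transductants it stood at −4.16 and −4.06 with the empty vector and −2.32 and −2.42 with the Lmo2 vector. The 4 pairs of arrays were fully apart from each other, with pro-B(+) at the top, pro-B(−)/LMO2 below it, and pro-B(−) and pro-B(−)/Mock at the bottom. Pro-B(+) exceeded pro-B(−) by 2.55 ± 0.0536 (SE) on the log2 scale, which is 5.85-fold (95% CI 5.33 to 6.42, adjusted p = 1.88e-06). The Lmo2 vector exceeded the empty one by 1.74 ± 0.0536 (SE), which is 3.33-fold (95% CI 3.04 to 3.66, adjusted p = 7.26e-06). This probe was dim, with mean intensities from 40.8 in pro-B(−)/Mock to 403 in pro-B(+). With a normexp background correction, which adds an offset to every spot, the log2 differences were 1.68 between the parental lines and 0.94 between the vectors, and both stayed called.

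Cebpb, a C/EBP factor that is induced by cytokines and inflammatory signals, had levels of 1.40 and 1.44 in pro-B(+), 0.64 and 0.75 in pro-B(−), 0.65 and 0.73 in pro-B(−)/Mock and 1.57 and 1.54 in pro-B(−)/LMO2. The arrays of pro-B(−) and pro-B(−)/Mock intermingled, and all arrays of the other groups lay above them. The gene was 1.65-fold higher in pro-B(+) cells than in pro-B(−) cells (95% CI 1.51 to 1.81, adjusted p = 0.000172) and 1.82-fold higher in pro-B(−)/LMO2 than in pro-B(−)/Mock (95% CI 1.66 to 1.99, adjusted p = 6.94e-05).

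Cebpd, which acts in acute-phase and macrophage responses and early in adipocyte formation, had levels of 0.68 and 0.69 in pro-B(+), −0.67 and −0.65 in pro-B(−), −0.48 and −0.42 in pro-B(−)/Mock and 0.64 and 0.67 in pro-B(−)/LMO2. Pro-B(+) and pro-B(−)/LMO2 thus lay close together, and well above the other arrays. The parental lines differed 2.55-fold (95% CI 2.39 to 2.71, adjusted p = 4.54e-06), and the vectors 2.15-fold (95% CI 2.02 to 2.29, adjusted p = 9.59e-06).

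Cebpe, the C/EBP factor of late granulocyte maturation, was read by the dimmest probe of the group, with mean intensities of 33.3 to 107 against a 75th percentile of 604 to 949. Its levels were −2.91 and −3.28 in pro-B(+), −4.21 and −4.98 in pro-B(−), −4.20 and −4.64 in pro-B(−)/Mock and −3.90 and −4.03 in pro-B(−)/LMO2. Pro-B(+) lay above all other arrays, and replicates differed by an SD of 0.0959 in pro-B(−)/LMO2 to 0.55 in pro-B(−). The difference between the parental lines was 2.82-fold (95% CI 1.69 to 4.70, adjusted p = 0.00927). It was 0.52 on the log2 scale, against 1.50, with the normexp correction, and the call was lost without pro-B(+) replicate 1 (adjusted p = 0.0501). The Lmo2 vector stood 0.45 above the empty one, with a 95% CI of −0.28 to 1.19 (adjusted p = 0.228), so that a rise of more than 2-fold is within the interval.

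Cebpg, the member without an activation domain, moved little. Its levels were −1.21 and −1.35 in pro-B(+), −0.91 and −0.96 in pro-B(−), −1.13 and −1.13 in pro-B(−)/Mock and −0.79 and −0.93 in pro-B(−)/LMO2. Pro-B(+) held the lowest arrays, and pro-B(−) and pro-B(−)/LMO2 intermingled at the top. It was 1.27-fold lower in pro-B(+) cells than in pro-B(−) cells (95% CI 1.13 to 1.43, adjusted p = 0.00909), while its neighbour on the chromosome, Cebpa, was higher there. It was 1.20-fold higher in pro-B(−)/LMO2 than in pro-B(−)/Mock (95% CI 1.07 to 1.35, adjusted p = 0.0167), a call that was lost with median scaling (0.06 on the log2 scale, adjusted p = 0.547) and when pro-B(−)/Mock replicate 1, pro-B(−)/Mock replicate 2 or pro-B(−)/LMO2 replicate 1 was left out (adjusted p = 0.0648, 0.0695 and 0.0791).

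Irf8, which directs monocyte and dendritic cell fate and also acts in early B cells, had levels of 2.61 and 2.61 in pro-B(+), 0.47 and 0.55 in pro-B(−), 1.09 and 1.05 in pro-B(−)/Mock and 2.87 and 2.90 in pro-B(−)/LMO2. No group overlapped another, and its highest level was in pro-B(−)/LMO2. Irf8 was 4.28-fold higher in pro-B(+) cells than in pro-B(−) cells (95% CI 3.99 to 4.59, adjusted p = 1.5e-06) and 3.53-fold higher in pro-B(−)/LMO2 than in pro-B(−)/Mock (95% CI 3.29 to 3.79, adjusted p = 2.85e-06). Among all probes tested, these sizes ranked at the 95.4th and 95.9th percentiles.

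Klf4, a monocyte-promoting factor that is also known from mesenchymal cells, had levels of 0.57 and 0.57 in pro-B(+), 0.22 and 0.16 in pro-B(−), −0.40 and −0.48 in pro-B(−)/Mock and −0.47 and −0.45 in pro-B(−)/LMO2. Both transductants lay below both parental lines and intermingled with each other. Klf4 was 1.30-fold higher in pro-B(+) cells than in pro-B(−) cells (95% CI 1.21 to 1.40, adjusted p = 0.000996), which was lost with median scaling (0.10 on the log2 scale, adjusted p = 0.109). Between the vectors the difference was −0.02 with a 95% CI of −0.12 to 0.09 (adjusted p = 0.728). With median scaling it was −0.23 and called (adjusted p = 0.0071).

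Gfi1, the repressor of granulocyte precursors, had levels of 1.19 and 1.21 in pro-B(+), 0.93 and 0.96 in pro-B(−), 0.86 and 0.96 in pro-B(−)/Mock and 0.35 and 0.32 in pro-B(−)/LMO2. The Lmo2 arrays stood clearly below the other 6. Gfi1 was 1.48-fold lower in pro-B(−)/LMO2 than in pro-B(−)/Mock (95% CI 1.37 to 1.61, adjusted p = 0.000179). Between the parental lines the gene was 1.19-fold higher in pro-B(+) (0.26 on the log2 scale, 95% CI 0.14 to 0.37, adjusted p = 0.0062), but with median scaling the direction turned and the call was lost (−0.03 on the log2 scale, adjusted p = 0.606).

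Gfi1b, the paralogue of the erythroid and megakaryocyte lineages, had levels of 2.21 and 2.22 in pro-B(+), 2.87 and 2.80 in pro-B(−), 2.53 and 2.53 in pro-B(−)/Mock and 2.30 and 2.28 in pro-B(−)/LMO2. The parental pro-B(−) line was at the top, pro-B(−)/Mock below it, and pro-B(−)/LMO2 and pro-B(+) at the bottom, with no overlap between groups. Gfi1b was 1.54-fold lower in pro-B(+) cells than in pro-B(−) cells (95% CI 1.45 to 1.63, adjusted p = 6.51e-05) and 1.18-fold lower in pro-B(−)/LMO2 than in pro-B(−)/Mock (95% CI 1.11 to 1.26, adjusted p = 0.00186).

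The difference between the vectors was set against the difference between the parental lines for each member, as the first minus the second, a contrast of 2 within-slide differences. It was called for 7 of the 9 members, 2 higher and 5 lower, against 54.1% of 24584 probes, 25.1% higher and 29% lower. Cebpa differed less between the vectors than between the lines, by 0.81 ± 0.0758 (SE, log2; adjusted p = 0.000515), and so did Irf8, by 0.28 ± 0.0575 (adjusted p = 0.00984), and Cebpd, by 0.24 ± 0.0524 (adjusted p = 0.0111). The call for Cebpd was lost with median scaling (adjusted p = 0.0617). Klf4 and Gfi1 were higher in pro-B(+) cells than in pro-B(−) cells but not with the Lmo2 vector, and their contrasts were −0.40 ± 0.0599 (adjusted p = 0.00282) and −0.83 ± 0.064 (adjusted p = 0.00027). Cebpg gave 0.61 ± 0.0957 (adjusted p = 0.00338) and Gfi1b 0.38 ± 0.0495 (adjusted p = 0.00171). Cebpb, at 0.14 with a 95% CI of −0.05 to 0.32 (adjusted p = 0.173), and Cebpe, at −1.04 with a 95% CI of −2.08 to 0.000503 (adjusted p = 0.0838), did not pass the test.

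**Figure D2:**
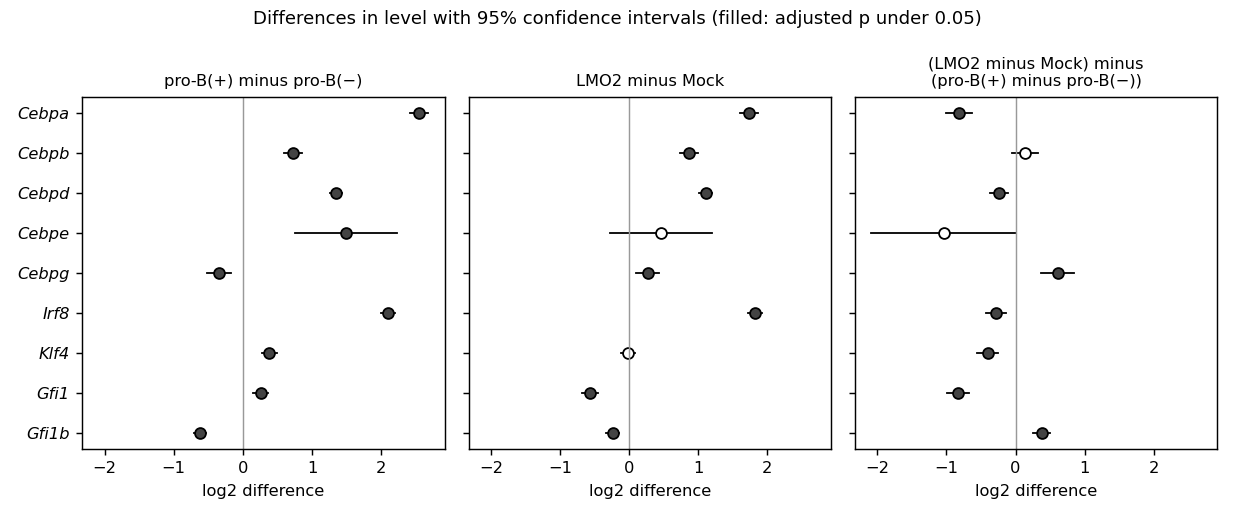
Differences in level of the 9 transcription factors on the log2 scale (x axis), as pro-B(+) minus pro-B(−), as LMO2 minus Mock, and as the second minus the first. Points are limma estimates from 2 arrays a group, bars are 95% confidence intervals, and filled points had an adjusted p under 0.05. Cebpa and Irf8 stood furthest to the right in the first and second panels, at 2.55 and 2.10 and at 1.74 and 1.82, and the interval of Cebpe was the widest.

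Some members differed between the empty-vector cells and the parental pro-B(−) line, but no more often than probes in general. Between pro-B(−)/Mock and pro-B(−), 5 of the 9 members were called, against 58.1% of 23048 probes (27.9% higher, 30.2% lower), and the groups did not overlap for 6 members, against 82.8% of probes. Irf8 was 1.47-fold and Cebpd 1.16-fold higher in pro-B(−)/Mock (adjusted p = 0.000229 and 0.00518), and Klf4 was 1.55-fold, Cebpa 1.31-fold and Gfi1b 1.23-fold lower (adjusted p = 0.000173, 0.00214 and 0.00115). The calls for Cebpa and Cebpd were lost with the normexp correction (adjusted p = 0.150 and 0.0995). The 2 groups lay on different slides, so that slide and group cannot be told apart.

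Across the slides, pro-B(−)/LMO2 differed from pro-B(+) for 6 of the 9 members, against 76.3% of 24134 probes (34.9% higher, 41.4% lower), and no member overlapped, against 89.3% of probes. Cebpa was 2.30-fold, Klf4 2.04-fold, Gfi1 1.82-fold and Cebpe 1.82-fold lower in pro-B(−)/LMO2 cells than in pro-B(+) cells (adjusted p = 1.39e-05, 1.05e-05, 2.4e-05 and 0.039). Cebpg was 1.34-fold and Irf8 1.21-fold higher (adjusted p = 0.0022 and 0.00144). Cebpd, at −0.03 with a 95% CI of −0.13 to 0.06, Cebpb, at 0.13 with a 95% CI of 0.000648 to 0.26, and Gfi1b, at 0.08 with a 95% CI of −0.01 to 0.16, did not pass the test. The call for Cebpe was lost in 7 of 18 alternative analyses, among them each that left out 1 array of these groups (adjusted p of 0.0612 and 0.165 without a pro-B(+) array, and 0.0981 and 0.134 without a pro-B(−)/LMO2 array), and its difference fell from −0.86 to −0.13 with the normexp correction.

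Ordered by level, with all 6 pairs of groups tested, the members fell into a few arrangements. Cebpa ran from pro-B(+) through pro-B(−)/LMO2 and pro-B(−) to pro-B(−)/Mock, and Irf8 from pro-B(−)/LMO2 through pro-B(+) and pro-B(−)/Mock to pro-B(−), with every neighbouring pair called. Cebpd had pro-B(+) and pro-B(−)/LMO2 at the top without a called difference, then pro-B(−)/Mock, then pro-B(−). Cebpb had the same top pair in reverse order, and neither its top pair nor its bottom pair differed by the test. Cebpe had pro-B(+) at the top, and its other 3 groups did not differ by the test. Cebpg ran from pro-B(−)/LMO2 to pro-B(+) with no neighbouring pair called. Klf4 ran from pro-B(+) to pro-B(−) and then to the transductants, which did not differ, Gfi1 (not with median scaling) from pro-B(+) to the level shared by pro-B(−) and pro-B(−)/Mock and then to pro-B(−)/LMO2, and Gfi1b from pro-B(−) through pro-B(−)/Mock to pro-B(−)/LMO2 and pro-B(+), which did not differ. Of the 2 pairs that belong to none of the comparisons above, pro-B(+) against pro-B(−)/Mock had 8 members called (68.4% of probes) and pro-B(−)/LMO2 against pro-B(−) had 7 (74.3% of probes).

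For the members whose group means spanned at least 1 on the log2 scale, the genes nearest in pattern were sought among 11642 genes above background on all 8 arrays, by the root mean square difference of centred levels over the 8 arrays, which share 4 groups and are not independent points. Nearest to Cebpa were Phf11b (0.111) and Lpl (0.115), the lipoprotein lipase of fat and macrophages. Cebpd was matched most closely by P2rx4 (0.0454), an ATP-gated channel of myeloid cells, and Inf2 (0.0588), a formin. Irf8 had Il4ra (0.135), the interleukin 4 receptor, and Unc93b1 (0.136), which carries nucleic acid-sensing Toll-like receptors to endosomes. Klf4 had Itpripl2 (0.0497). Cebpe had Echdc2 (0.218) and Ctdspl (0.221), the widest distances of the 5 members compared in this way.

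In the 2 main comparisons, the listed genes that IRF8 works with were higher where Irf8 was higher. All 5 listed partners were called higher in pro-B(+) cells than in pro-B(−) cells, with a median log2 difference of 2.82 against −0.04 for all probes, and all 5 were called higher with the Lmo2 vector, with a median of 1.81 against −0.04, Batf being the exception to both under median scaling. Batf3, the AP-1 factor of cross-presenting dendritic cells, was 17.7-fold higher in pro-B(+) and 33.0-fold higher with the Lmo2 vector. It was above background on 1 of the 2 pro-B(−) arrays, so that between the lines it was tested through pro-B(+) alone. Spib, an ETS factor of plasmacytoid dendritic and B cells, was 8.69-fold and 5.26-fold higher. Of the others, named after their values were seen, Irf4 was 7.07-fold and 3.50-fold higher, and Spi1, which encodes PU.1, was 1.46-fold and 1.27-fold higher. Batf had differences of 0.14 and 0.30, and with median scaling it turned lower between the lines (−0.14, adjusted p = 0.043) and lost its call between the vectors. The partners did not follow Irf8 across the slides. In pro-B(−)/Mock against pro-B(−), where Irf8 was 1.47-fold higher, 1 partner was called higher and 2 lower (median −0.03 against −0.01 for all probes). In pro-B(−)/LMO2 against pro-B(+), where Irf8 was 1.21-fold higher, 1 was called higher and 4 lower (median −0.57 against −0.05).

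The partners of the C/EBP and GFI1 factors moved less. Of 5 genes that dimerize with C/EBP proteins or control their stability, 2 were called higher in pro-B(+) and 0 lower (median 0.04), but with median scaling 2 were higher and 3, Ddit3, Atf4 and Cop1, lower. Trib1, an adaptor for C/EBPα degradation, was 2.01-fold higher, and its relative Trib2, not well above background in pro-B(−), was at least 2.34-fold higher. With the Lmo2 vector, 2 of 4 tested were called higher and 2 lower (median 0.22). Trib1 was 1.86-fold and Ddit3, a dominant inhibitor of C/EBP dimers, 1.54-fold higher, and the ubiquitin ligase gene Cop1 and the stress factor gene Atf4 were 1.19-fold and 1.13-fold lower. Among GFI1 co-repressors and partners, 2 of 4 tested were called lower in pro-B(+) (median −0.12), Kdm1a, which encodes LSD1, 1.14-fold and Hdac2 1.12-fold, and with median scaling all 4 were. Between the vectors 3 of 4 were called lower under either scaling, in pro-B(−)/LMO2 (median −0.36), Hdac2 1.67-fold and Kdm1a 1.37-fold.

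Other regulators of myeloid cells were called in both directions. In pro-B(+), 7 of 9 tested were higher and 2 lower (median 0.78). Tfec was tested through pro-B(+) alone, so the filter set the direction of its call. The immediate early genes Egr2 and Nr4a1 were 8.18-fold and 4.41-fold higher, and the progenitor factors Runx1 and Myb 2.16-fold and 1.73-fold lower. With the Lmo2 vector, 5 of 8 were higher and 3 lower (median 0.72). Nr4a1 and Egr2 were 4.47-fold and 2.94-fold higher, and Zeb2, a transcriptional repressor, and Myb were 1.46-fold and 1.39-fold lower.

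Most listed genes of the granulocyte programme, on which the C/EBP factors act, were higher in pro-B(+) cells. Among genes of primary granules and growth factor receptors, 9 of 10 were called higher and 0 lower (median 3.48). Lyz2 and Ms4a3 were tested through pro-B(+) alone, so the filter set the direction of their calls. Lyz2, the macrophage lysozyme, was at least 126-fold higher, being not well above background in pro-B(−), and Csf1r, the receptor for M-CSF, was 21.8-fold higher. Csf3r, the G-CSF receptor, was not called, at 6.05 in pro-B(+) and 6.22 in pro-B(−). With median scaling 8 were higher and 1, Csf3r, was lower, and Elane lost its call (adjusted p = 0.0572). With the Lmo2 vector, 6 of 9 tested were called higher and 2 lower (median 0.75). Here Lyz2 was tested through pro-B(−)/LMO2 alone and Ctsg through pro-B(−)/Mock alone. Lyz2 was at least 10.5-fold and Mpo, the myeloperoxidase gene, 20.9-fold higher, while Csf3r was 1.20-fold lower. Ctsg was called lower as well, but its 2 pro-B(−)/Mock arrays lay far apart (SD 0.956 on the log2 scale) and no fold is given.

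Secondary granule genes, which follow C/EBPε in maturing granulocytes, stood apart between the lines. All 7 tested were called higher in pro-B(+), with a median of 5.63, or 4.02 with genes not well above background in pro-B(−) taken at their bound. Ltf, Ngp, Mmp8, S100a8 and S100a9 were tested through pro-B(+) alone, so the filter set the direction of their calls. Camp and Lcn2, above background in both lines, stood at −0.56 and −1.51 in pro-B(+) and −4.26 and −4.48 in pro-B(−). S100a9 was at least 609.7-fold and S100a8 at least 193-fold higher, both not well above background in pro-B(−). With the Lmo2 vector only 2 of the 8 listed genes could be tested, Lcn2, 3.42-fold higher, and Camp, 1.70-fold higher, while S100a8, S100a9, Ltf and Mmp8 were not well above background on any transductant array. The summed level of the list, on a linear scale where 1 is the 75th percentile of the array, was 16.1 and 16.4 in pro-B(+), 0.125 and 0.135 in pro-B(−), 0.108 and 0.121 in pro-B(−)/Mock and 0.271 and 0.277 in pro-B(−)/LMO2.

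Monocyte and dendritic cell genes, the territory of IRF8 and KLF4, rose and fell within 1 list. In pro-B(+), 9 of 11 tested monocyte and macrophage genes were higher and 1 was lower, or 2 with median scaling (median 2.65). Cd14 and Cybb, not well above background in pro-B(−), were tested through pro-B(+) alone, so the filter set the direction of their calls. Ly86, a partner of the Toll-like receptor relative RP105, was 53.8-fold and Mpeg1, which encodes perforin-2, 50.5-fold higher, and the Fc receptor gene Fcgr3 was 1.97-fold lower. With the Lmo2 vector, 7 of 10 were higher and 1 was lower (median 0.95), of which Cx3cr1, a chemokine receptor gene, lost its call with median scaling (adjusted p = 0.514). Mpeg1 was 29.1-fold and Ly86 10.5-fold higher. Ly86 was above background on 1 of the 2 pro-B(−)/Mock arrays, so that it was tested through pro-B(−)/LMO2 alone. Adgre1, which encodes the macrophage antigen F4/80, was 2.32-fold lower, although it was 6.27-fold higher in pro-B(+) cells than in pro-B(−) cells. Of 4 dendritic cell genes tested, 2 were called higher in pro-B(+) (median 0.78) and 3 with the Lmo2 vector (median 0.84), and with median scaling 1 was called lower in each. Ciita was tested between the vectors through pro-B(−)/LMO2 alone. Cd74, the invariant chain, was 20.1-fold and 27.0-fold higher, and Itgax, which encodes CD11c, 2.99-fold and 2.05-fold higher. Siglech, of the same list, was called in neither comparison. It stood at 4.45 in pro-B(+) and 4.70 in pro-B(−), and at 5.08 in pro-B(−)/LMO2 and 5.21 in pro-B(−)/Mock. Xcr1, the receptor that marks cross-presenting dendritic cells, was not well above background on any array.

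**Figure D3:**
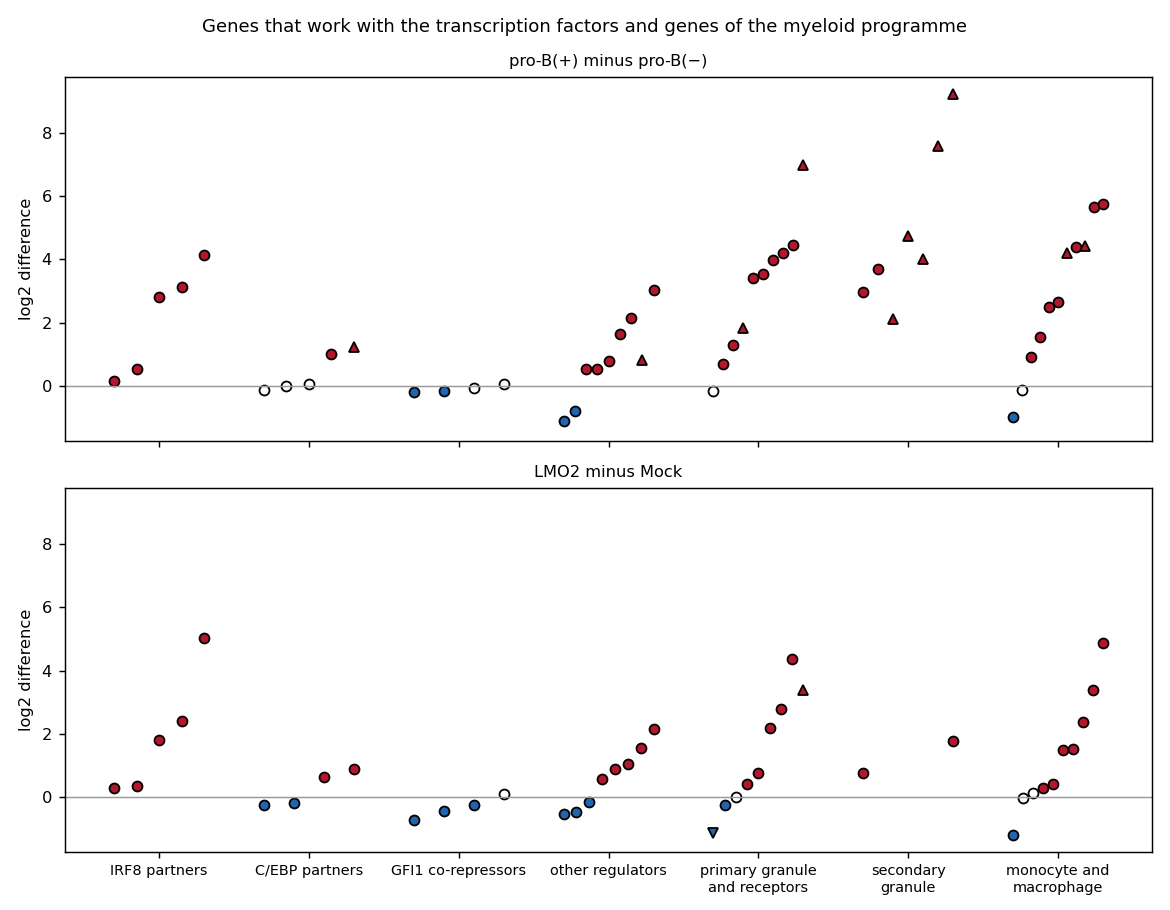
Differences on the log2 scale (y axis) of genes that work with the transcription factors or belong to the myeloid programme, between the parental lines (top) and between the vectors (bottom). Each symbol is 1 tested gene, red or blue where called higher or lower and white where not called, and triangles are lower bounds for genes not well above background in 1 group. All 5 IRF8 partners were above 0 in both panels (Batf fell below 0 in the top one with median scaling), whereas of the secondary granule genes 7 were tested between the lines and 2 between the vectors.

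Some members are also known from stromal and fat cells, and genes of those cells moved with the groups. Of 12 stromal genes, 9 were above background on all 8 arrays, Col1a1 and Pdgfrb among them, while Dcn and Lum, which are defining genes of stroma, were on none. The summed level of the list was 20.3 to 21.0 in pro-B(+), 8.43 to 8.66 in pro-B(−), 23.4 to 24.3 in pro-B(−)/Mock and 31.4 to 32.3 in pro-B(−)/LMO2. Of the 9 tested, 8 were called higher in pro-B(+) and 0 lower (median 1.41), led by Col1a1 (3.14-fold) and Sparc (2.89-fold), and of 10 tested, 6 were higher and 1 lower with the Lmo2 vector (median 0.24), led by Pdgfrb (2.06-fold) and Sparc (1.73-fold), with Postn 1.68-fold lower. Median scaling removed the calls of Col3a1 in the first comparison and of Col1a1, Fstl1 and Bgn in the second, which left 7 higher and 1 lower, and 3 higher and 2 lower.

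The adipocyte list, whose programme C/EBPα, C/EBPβ and C/EBPδ are known to drive together with PPARγ, had summed levels of 4.77 to 4.84 in pro-B(+), 1.20 to 1.21 in pro-B(−), 1.26 to 1.31 in pro-B(−)/Mock and 5.26 to 5.30 in pro-B(−)/LMO2. The same pair of groups was high for Cebpa, Cebpb and Cebpd, and also for Irf8, which is not a C/EBP factor. Of 5 genes tested, 4 were called higher in pro-B(+) (median 1.62), Pparg 7.90-fold and Lpl 5.43-fold, and 5 with the Lmo2 vector (median 2.27), Plin1, not well above background in pro-B(−)/Mock, at least 11.3-fold and Adipoq 6.48-fold. With median scaling 3 were higher and 1 lower between the lines, and Plin1 lost its call (adjusted p = 0.225). The part of stromal or fat cells in the levels of the C/EBP factors was not tested. In bulk RNA, fewer cells of a type and less RNA per cell cannot be told apart.

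**Figure D4:**
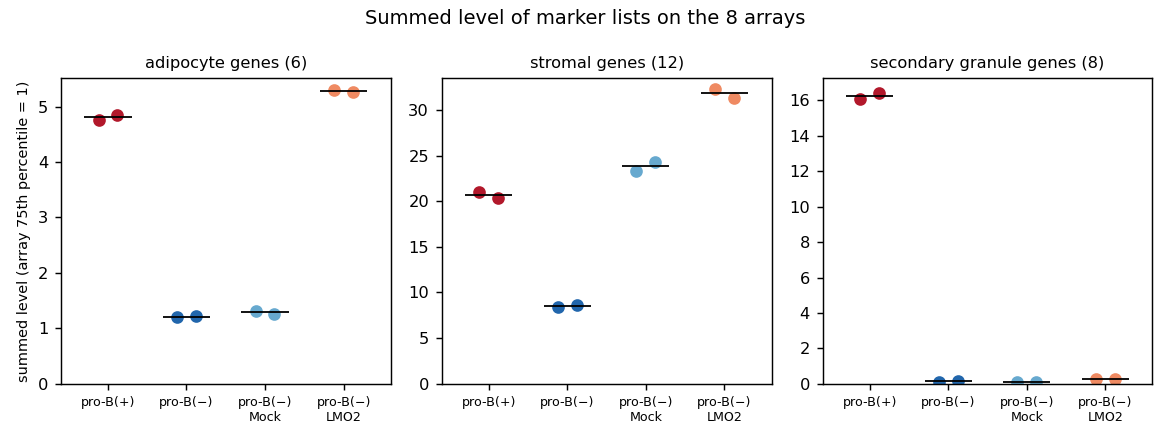
Summed level of the adipocyte, stromal and secondary granule lists on the 8 arrays. The y axis is linear, in units of the 75th percentile of the array, each point is 1 array and lines are group means. The adipocyte sum was 4.77 or more in pro-B(+) and pro-B(−)/LMO2 and 1.31 or less in the others, the stromal sum was lowest in pro-B(−), and the secondary granule sum was 16.1 or more in pro-B(+) alone.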

How the data were processed

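RNA of 8 samples was hybridised to 1-colour Agilent mouse arrays, 2 for each of 4 groups, which were read from the sample titles (the series' design text names no vector for the pair titled as empty vector). Per the file headers, the deposited spot intensity values (processed signal) came from Agilent Feature Extraction 11.5.1.1, and the authors scaled arrays to the 75th percentile. The deposited series table holds log2 values, equal to the processed signal less a constant for each array, and served as an alternative.

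Control spots and outlier spots were removed, spots of a probe were averaged, and log2 intensity minus the 75th percentile of each array was used. Of 39378 probes analysed, 26550 (67.4%) carried a gene name, and no spot was saturated. One limma fit (limma 3.58.1, R 4.3.3) held 4 group means with 4 residual degrees of freedom. Each comparison tested the probes that were above background on the 2 arrays of 1 or more of its groups, with Benjamini-Hochberg adjustment over these probes. The number of arrays limits the precision: an exact permutation test of 2 against 2 arrays cannot go below p = 0.333. For a gene not well above background in 1 group, a fold is a bound, taken from the higher of its own signal and the lowest signal well above background on each array. Such a gene was tested through the other group, which set the direction of its call. The steps were tested on simulated data.

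The members and gene lists were chosen with earlier results of these data known. All members are named. From each other list the 2 genes that rose most and the 2 that fell most among those called are named, and for members whose group means span at least 1 the 2 genes nearest in pattern. A few genes under these rules are not reported here. Other genes were named after their values were seen. Alternatives were median scaling, quantile normalization, the series table, other filters on dim probes, the mean of all probes of a gene, fits on the compared arrays alone, an intensity trend, the replicate number as a block, and leaving out each array. A normexp correction on median spot signals with an offset of 50 was added after the data were seen, since the planned form needed mean spot signals, which were not used here. The array design was annotated on another mouse build than the promoters, so no probe coordinates are given.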

Additional observations from a re-analysis of the deposited data

How the results depend on the processing

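The 5 counts of called members were recomputed under 18 alternatives. The count between pro-B(−)/Mock and pro-B(−) moved from 5 to 3 with the normexp correction (58.1% and 53.9% of all probes), and the others stayed within 1.5 times of their value. This held for each fit without 1 array, which leaves 1 array in a group. Replicate numbers did not pair the samples (correlations of −0.03 to 0.05 between same-numbered arrays). With the replicate block, 9 members were called between the parental lines (47.1% of all probes) and 7 between the vectors (62.9%). It gave 6 for pro-B(−)/Mock against pro-B(−) (56.3%), 6 for pro-B(−)/LMO2 against pro-B(+) (75.7%) and 8 for the difference of the effects (52.6%).

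Among single members, 1 called difference changed direction, that of Gfi1 between the parental lines (−0.028 with median scaling). The other reversals were of differences that had not passed the test. With median scaling Cebpb stood at 0.013 between pro-B(−)/Mock and pro-B(−), and Cebpd at 0.060 between pro-B(−)/LMO2 and pro-B(+). Between the vectors, Klf4 ranged from −0.057 to 0.020 when 1 array was left out, the latter without pro-B(−)/Mock replicate 1, and stood at 0.0035 with the normexp correction. Between pro-B(−)/Mock and pro-B(−), leaving out 1 array gave −0.091 to 0.011 for Gfi1, −0.21 to 0.56 for Cebpe and −0.060 to 0.049 for Cebpb, with reversals for all 3 without pro-B(−)/Mock replicate 1 (0.011, −0.042 and 0.035) and for Cebpe and Cebpb without pro-B(−) replicate 2 (−0.21 and 0.049). The cause was not tested. The dim probes of Cebpa and Cebpe are those whose sizes depend most on the background correction, and the planned normexp form on mean spot signals was not run.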

Other observations

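Genes of other lineages also differed between the groups. Of 8 early T genes, 5 were called higher and 1 lower in pro-B(+) cells than in pro-B(−) cells (median 0.99 on the log2 scale), and likewise 5 and 1 with the Lmo2 vector (median 1.07), with 2 lower between the lines under median scaling. Cd3d, Cd3g, Tcf7, Il2ra and Ptcra were tested between the lines through pro-B(+) alone. Cd3g, Tcf7 and Il2ra were tested between the vectors through pro-B(−)/LMO2 alone. For these genes the filter set the direction of any call. Tcf7, a T-lineage transcription factor, rose at least 7.54-fold between the lines, with pro-B(+) higher, and at least 238-fold with the Lmo2 vector, and Bcl11b, which secures T commitment, was 1.69-fold and 8.54-fold lower. Of the pro-B and early B genes, 2 were called higher and 6 lower of 11 tested in pro-B(+) (median −0.64), and 3 higher and 5 lower of 10 tested with the Lmo2 vector (median −0.34). Among them, Cd79b was tested between the lines through pro-B(+) alone and Igll1 through pro-B(−) alone. Between the vectors, Igll1 was tested through pro-B(−)/Mock alone. Blnk, a B-cell adaptor, was 28.9-fold and 4.31-fold higher, while Dntt, the terminal transferase, was 7.56-fold lower in pro-B(+) and 16.2-fold higher with the Lmo2 vector. Rag1 and Rag2, the recombinase genes, were 6.86-fold and 4.31-fold lower with the Lmo2 vector.

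Of 8 mast cell, basophil and eosinophil genes, 4 could be tested between the lines and 3 between the vectors. All of these were above background on both arrays of the higher group alone, so the filter set the direction of their calls. They were called higher, with medians of 3.94 between the lines (1.85 with genes at their bound) and 2.73 between the vectors. Cpa3, the mast cell carboxypeptidase, was at least 3.97-fold and at least 12.1-fold higher. Of erythroid and megakaryocyte genes, the lineages of Gfi1b, 2 of 6 tested were called higher and 1 lower, or 2 with median scaling, in pro-B(+) (median 0.20), and 3 of 4 higher and 0 lower with the Lmo2 vector (median 0.89), of which Epor lost its call with median scaling. Gp9, a platelet glycoprotein gene, was 1.49-fold lower in pro-B(+) and 2.70-fold higher with the Lmo2 vector. Gata1 was 6.03-fold higher in pro-B(+), above background on 1 of the 2 pro-B(−) arrays. Gata1 and Pf4 were tested between the lines through pro-B(+) alone, and Itga2b between the vectors through pro-B(−)/LMO2 alone. The filter thus set the direction of the calls of these genes.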
